A study of Oreochromis niloticus with 24 samples.

Results

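Vessel wall genes were followed through the sorted cell fractions of the Nile tilapia pituitary. The 4 genes are eng (endoglin, listed as LOC100696747), engl (an endoglin like gene, LOC102080817), s1pr1 (the sphingosine 1-phosphate receptor 1) and cdh5 (VE-cadherin, LOC100711438). They were chosen by gene name and are 4 of the 2932 genes in the male and female expression tables. The male table holds 3 of them among 2392 genes (eng, s1pr1 and cdh5), and the female table holds 1 among 1849 genes (engl). None of the 4 is among the 1309 genes that both tables share, so no gene here was compared between the sexes.

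The fish were mature males and females of the Lake Manzala strain. All of them carried both transgenes, a red fluorescent protein under the LH promoter and a green one under the FSH promoter. The digested pituitaries were sorted into an LH fraction (red only), an FSH fraction (green only) and a negative fraction, which holds every other cell of the gland that did not fluoresce. Each sex was sorted 4 times, with 20 pituitaries per pool by the labels and fewer in some pools by the text of the study, so each fraction has 4 libraries per sex and 24 libraries were used. A library is therefore a pool of animals, and sort numbers from 1 to 4 name the pools within a sex.

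Endoglin is known in mammals and zebrafish as a co-receptor of endothelial cells, which line blood vessels, and it helps the receptor ALK1 to respond to BMP9 and BMP10. S1pr1 is a G protein-coupled receptor for sphingosine 1-phosphate, a lipid carried in blood, and in endothelium it restrains sprouting and tightens the vessel wall. Cdh5 is the cadherin that joins neighbouring endothelial cells at adherens junctions. The pituitary is densely supplied with capillaries, through which its hormones leave the gland. The engl gene is counted here by its symbol alone. The supplement of the study describes it as a transforming growth factor beta receptor type 3 and pairs it with rat Tgfbr3l, whose product is known in mice as a co-receptor of inhibin B in gonadotrophs. Its identity was not tested here, and it may not be a vessel wall gene.

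All 4 genes are annotated as protein coding in the O_niloticus_UMD_NMBU assembly, and none overlaps another annotated gene. The eng gene lies on linkage group LG7 from 19295176 to 19337248 and has 2 annotated transcripts. The engl gene lies on LG4 from 8063566 to 8079244. The s1pr1 gene lies on LG17 from 24176477 to 24182229, and cdh5 on LG13 from 6970885 to 7005740.

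Expression is given as normalized reads (NR): what was counted for a gene, divided by the size factor of its library. The reads behind the tables' genes ranged from 69091 to 2004647 per library. As a limit of detection 3 reads were used, which correspond to 1.22 to 7.21 NR, and this limit covers counting error only. The sorts separated the gonadotropin beta subunits lhb and fshb in every library. In males, lhb (the LH beta subunit) had 3970 to 10130 NR in LH libraries, against 9.36 to 30.6 NR in FSH libraries and 2.64 to 34.3 NR in negative libraries, and fshb had 85.2 to 340.5 NR in LH libraries, against 30490 to 66630 NR in FSH libraries. In females, lhb had 1035 to 1678 NR in LH libraries, against 11.8 to 13.9 NR in FSH libraries. Hormones of other pituitary cells were not analysed here. By the study, RNA of the hormones pomc and sl was near or slightly above its negative-cell level in LH cells and far below it in FSH cells. The study proposed a small contamination or expression by LH cells themselves, which was not tested here. No fraction was sorted for endothelium, and levels are not compared between genes because no transcript lengths were used.

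The clearest pattern was the one between the gonadotroph fractions. All 4 genes were higher in LH than in FSH libraries, without overlap, as were 14.7% of the male and 24.1% of the female table. In the males eng and s1pr1 were also lower in FSH than in negative libraries. The tables hold only genes kept for a higher level in LH or FSH than in negative cells. These 4 can have been kept only through LH, so their higher level in LH than in FSH was largely set by that selection. The levels of the 4 genes in LH and negative libraries lay much closer together. In sorted pools, a fraction with fewer cells of one type and a fraction whose cells hold less of its RNA cannot be told apart.

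The co-receptor eng had 345.8, 127.8, 96.8 and 84.1 NR in the male LH libraries of sorts 1 to 4, against 11.2, 6.94, 3.69 and 1.20 NR in the FSH libraries and 91.0, 46.7, 58.0 and 83.0 NR in the negative libraries. The FSH libraries were all far below both other fractions, whereas LH and negative libraries overlapped, with LH sort 4 next to negative sort 4. The FSH values rest on 33 reads in all, and 2 of the 4 libraries were at or below the limit of 3 reads.

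Between LH and FSH libraries, the log2 fold change of eng on the log2(NR + 1) scale was 4.63 ± 0.50 (SE, n = 4 each, limma adjusted p = 1.22e-06). On the reads themselves eng was 23.6 times as abundant in LH as in FSH libraries, with a 95% exact counting interval of 16.6 to 34.7. This and the other counting intervals use reads summed over the libraries of a fraction. They cover counting error only and leave out the spread between pools. The within-sort difference was positive in 4 of 4 sorts and ranged from 4.02 to 5.27 on the log2 scale. Without LH sort 1, the highest LH library, the log2 fold change was 4.19 (adjusted p = 1.74e-06).

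The receptor s1pr1 had 46.6, 57.6, 42.7 and 45.2 NR in the male LH libraries, against 1.87, 1.63, 3.69 and 0 NR in the FSH libraries and 39.6, 19.6, 19.3 and 15.7 NR in the negative libraries. Here the 3 fractions did not overlap at all, although negative sort 1 lay just under the lowest LH library. The LH libraries were close to each other, with a mean of 48.0 ± 6.58 NR (SD, n = 4), and the FSH libraries held 9 reads together. Of the 4 FSH libraries, 3 were at or below the limit of 3 reads. The log2 fold change of LH against FSH was 4.32 ± 0.45 (SE, limma adjusted p = 8.45e-07), and the ratio of reads was 27.3 with a counting interval of 14.0 to 60.9.

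The junction gene cdh5 had 25.7, 43.5, 43.7 and 32.6 NR in the male LH libraries, against 14.0, 13.5, 6.14 and 8.39 NR in the FSH libraries and 26.8, 13.6, 15.8 and 8.97 NR in the negative libraries. All LH libraries were above all FSH libraries, and negative libraries overlapped with both. The LH against FSH difference was smaller than that of the other genes, at a log2 fold change of 1.73 ± 0.39 (SE, limma adjusted p = 0.00126) and a ratio of reads of 3.20 (2.33 to 4.45). In the FSH libraries cdh5 was above the limit of detection in all 4 libraries, with 60 reads.

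In females, engl had 19.7, 5.25, 20.0 and 12.6 NR in LH libraries, against 0, 0, 2.40 and 0.905 NR in FSH libraries and 1.83, 12.3, 2.35 and 3.30 NR in negative libraries. It is a low gene, with 57 reads in LH, 2 reads in FSH and 14 reads in negative libraries. Every FSH library and 3 of the 4 negative libraries were at or below the limit of 3 reads. LH libraries were all above FSH libraries, and sort 2 went against the rest in being the lowest LH and the highest negative library. The log2 fold change of LH against FSH was 3.12 ± 0.60 (SE, limma adjusted p = 9.12e-05). The ratio of reads was 28.0, with an interval of 7.40 to 236.7 that leaves its size poorly known.

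**Figure D1:**
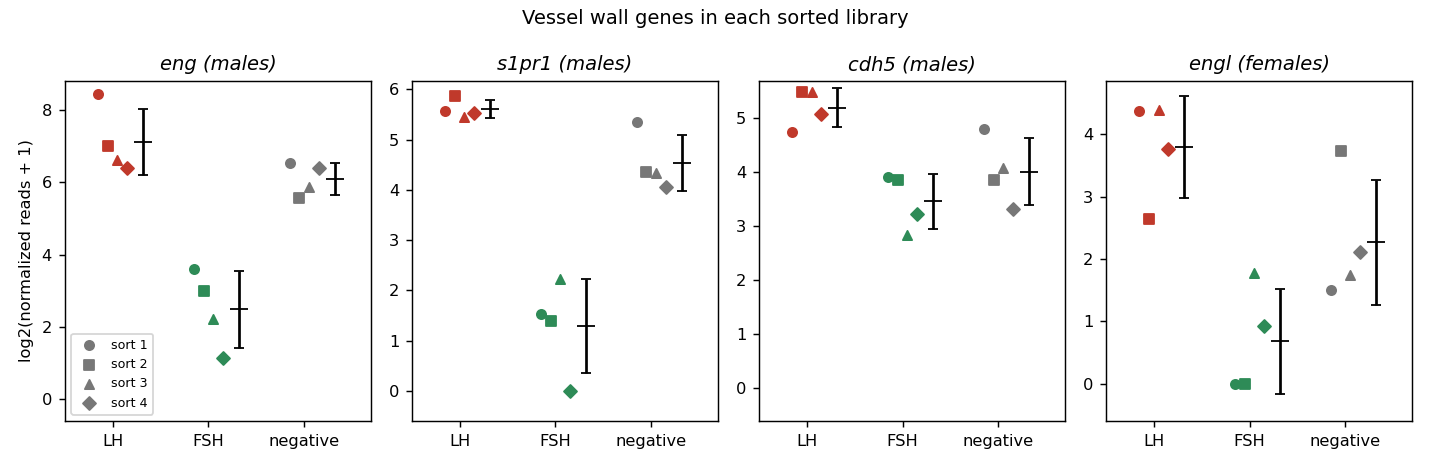
Level of each gene in each library, as log2(NR + 1), in the LH, FSH and negative fractions (eng, s1pr1 and cdh5 in males, engl in females). Marker shapes are the 4 sorts and black bars are the mean ± SD of 4 libraries; LH libraries lie above all FSH libraries in each panel, and only s1pr1 has LH libraries above all negative libraries.

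These counts have to be read beside the tables they come from. The authors kept genes whose log2 fold change was above 1 in LH or in FSH against negative cells. By the text of the study, an FDR-corrected p below 0.05 in DESeq2 was required too. Every gene here had therefore already been picked for a difference from negative cells. In FSH against negative libraries all 4 genes were below 0 (eng -3.60, s1pr1 -3.24, cdh5 -0.55 and engl -1.59). They can therefore have been kept only through LH, and a higher level in LH than in FSH was largely set by that selection. The shares and percentiles given here describe the genes and do not test them. All 3 male genes were called higher in LH than in FSH libraries, where 16.4% of the male table was called in that direction, and 14.7% of the table had LH libraries entirely above FSH libraries. In females 1 of 1 gene was called, where 25.9% of the table was called and 24.1% had groups without overlap. The fold changes stood at percentiles 97.6 (eng), 97.1 (s1pr1) and 89.4 (cdh5) of the male table and at percentile 84.4 (engl) of the female table. The median gene of the tables had a log2 fold change of -0.54 in males and -0.96 in females.

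**Figure D2:**
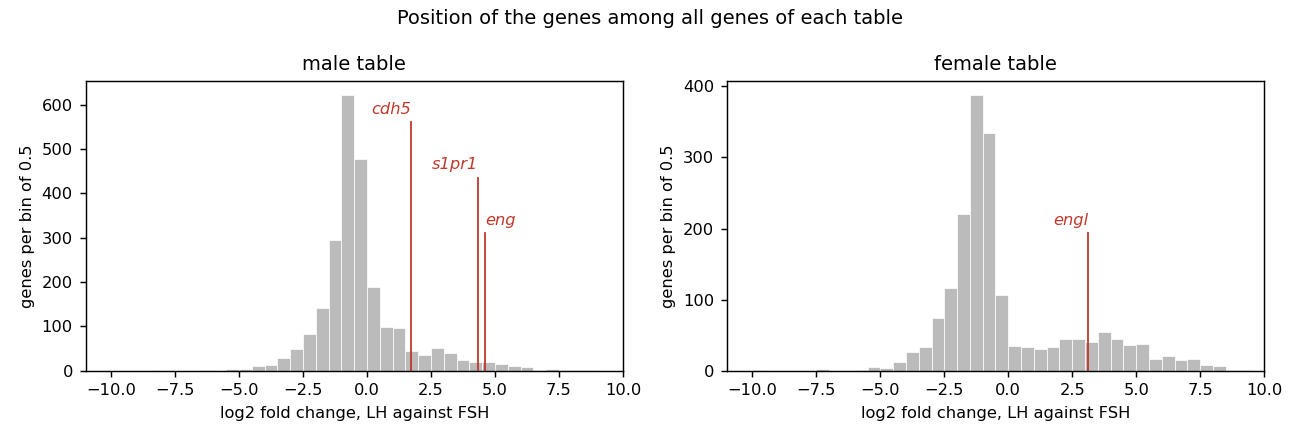
Number of genes per bin of 0.5 in the log2 fold change of LH against FSH, over the 2392 genes of the male and the 1849 genes of the female table, with red lines for the vessel wall genes. Most genes lie below 0, the table medians being -0.54 and -0.96, and all 4 lines lie above 0.

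FSH libraries were next compared with negative libraries, in which other pituitary cells are kept. This comparison shares its FSH libraries with the previous one, and the values are given side by side. In males, eng had a log2 fold change of -3.60 ± 0.50 (SE, limma adjusted p = 6.84e-06) and s1pr1 of -3.24 ± 0.45 (adjusted p = 6.94e-06), both without overlap and lower in FSH in 4 of 4 sorts. On the reads, the ratio of FSH to negative libraries was 0.0905 (95% counting interval 0.0610 to 0.130) for eng and 0.0735 (0.0325 to 0.146) for s1pr1. Cdh5 was at -0.55 ± 0.39 (adjusted p = 0.181), with overlapping libraries, and its 95% interval reached from -1.37 to 0.26. Thus 2 of 3 male genes were called lower in FSH than in negative libraries, where 7.98% of the male table was called lower, 6.81% was lower without overlap and the median gene was at 1.39. As these genes were kept through LH and most of the table was high in FSH, that contrast follows in part from the selection. The shares only describe the genes. The cdh5 value depended on the scaling: it was -2.03 after median centring (adjusted p = 0.000646) and -1.998 with TMM factors in edgeR (adjusted p = 0.000927), and both passed the threshold. Both scalings take out the shift of the whole table, which the selection in part set.

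In females, engl was called lower in FSH than in negative libraries, at -1.59 ± 0.60 (SE, limma adjusted p = 0.0167), with 20.0% of the female table called in that direction. As engl was also kept only through LH, this share only describes it. The libraries overlapped, since FSH sort 3 and negative sort 3 were both near 2.4 NR. This call rests on negative sort 2, whose 12.3 NR is the highest of the group, and without that library the log2 fold change was -1.11 (adjusted p = 0.0821). It was also lost without FSH sort 1 (adjusted p = 0.0517), without FSH sort 2 (0.0525) and without all 3 libraries of sort 2 (-0.88, adjusted p = 0.139).

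In males LH libraries exceeded negative libraries by about the amount that the whole table did. The log2 fold change was 1.02 ± 0.50 for eng (SE, limma adjusted p = 0.0777), 1.08 ± 0.45 for s1pr1 (0.0437) and 1.18 ± 0.39 for cdh5 (0.0136). The median gene of the male table was at 1.05, and 66.6% of the table was called higher in LH than in negative libraries, with 55.0% free of overlap. So 2 of 3 genes were called higher, a share like that of the table. This is also the contrast the authors selected on, and these values therefore only describe the genes. After each library was centred on its own median, the fold changes were -0.07 for eng, -0.02 for s1pr1 and 0.08 for cdh5. Centring takes out the shift of the whole table, which the selection in part set.

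The sorts differed in this contrast. Eng was 3.80, 2.73, 1.67 and 1.01 times as abundant in LH as in the negative library of the same sort. With the sort as a block, so that fractions of one pool were compared with each other, the eng difference passed the threshold (log2 fold change 1.02, limma adjusted p = 0.0201), whereas without LH sort 1 it was 0.58 (adjusted p = 0.275). It also passed without LH sort 4 (adjusted p = 0.0454), without FSH sort 4 (0.0396) and without all of sort 4 (1.36, 0.0255). The same library, LH sort 1, had the most lhb of the male LH libraries, 10130 NR against 3970 to 4353 NR in the others, and it held the highest value of 47.2% of the table's genes. Its part in the eng result was not tested. For cdh5 the ratio of LH to negative was 0.961 in sort 1 and 2.77 to 3.63 in the other sorts. Its call was lost without sort 2, 3 or 4 (adjusted p = 0.0584 to 0.0893). The s1pr1 call was lost without any single LH library or without negative sort 2, 3 or 4 (adjusted p = 0.0626 to 0.113). It was also lost in 3 of the 4 fits that left out a whole sort (limma adjusted p up to 0.181).

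In females, engl was at 1.52 ± 0.60 in LH against negative libraries (SE, limma adjusted p = 0.0491), where 36.9% of the table was called higher. The female table median was 0.52 and engl stood at percentile 88.6 of that table, where eng, s1pr1 and cdh5 stood at percentiles 48.1, 51.7 and 58.9 of the male table. The libraries overlapped, and LH was higher in 3 of 4 sorts, with ratios of 10.8, 0.428, 8.52 and 3.83 in sorts 1 to 4. The call was lost with the sort as a block (1.52, adjusted p = 0.0702) and without LH sort 1, 3 or 4, negative sort 1, 3 or 4, or FSH sort 1, 2 or 4 (adjusted p = 0.0517 to 0.131). It was also lost in 3 of the 4 fits that left out a whole sort (limma adjusted p up to 0.275).

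**Figure D3:**
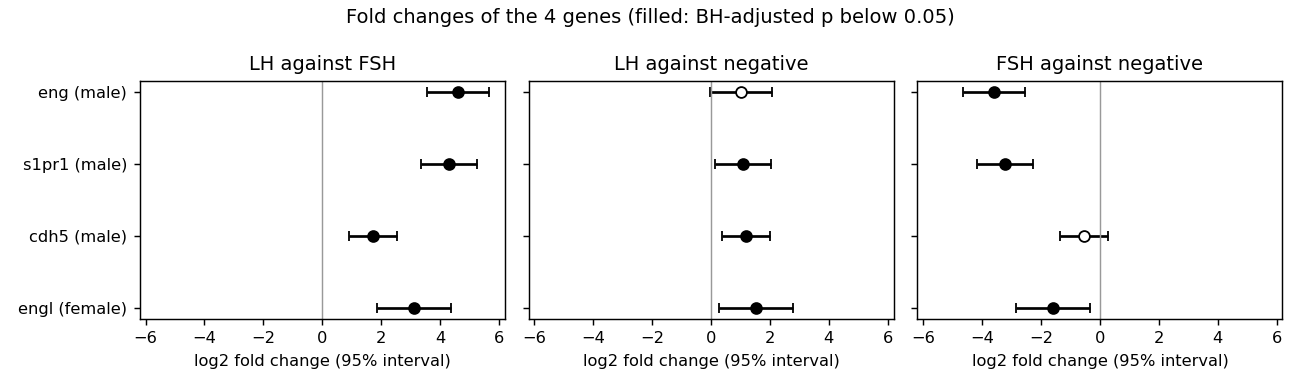
Log2 fold change on the log2(NR + 1) scale with its 95% interval, for each gene in LH against FSH, LH against negative and FSH against negative libraries. Filled points have a limma adjusted p below 0.05; the 4 genes are far above 0 in LH against FSH, near 1 in LH against negative, and eng and s1pr1 are below -3 in FSH against negative.

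The male genes were then set against each other within each library, where the size factor cancels except at low levels, at which the added 1 counts. The value of s1pr1 in FSH sort 4, with no read, is set by that added 1. On the log2(NR + 1) scale, eng minus cdh5 averaged 1.92 ± 1.19 in LH, against -0.97 ± 0.79 in FSH libraries (SD, n = 4 each), a difference of 2.89 with an exact permutation p of 0.02857 (two-sided). S1pr1 minus cdh5 averaged 0.41 ± 0.36 in LH, against -2.17 ± 1.11 in FSH libraries, a difference of 2.59 with the same exact p. FSH differed from negative libraries in the same direction for both pairs, by -3.05 and -2.69 (exact permutation p = 0.02857). That is the smallest p when 4 against 4 libraries are permuted freely, which ignores that same-numbered fractions share a pool. Over the 9 comparisons the adjusted value was 0.06429, so none passed the threshold after adjustment. All 3 genes can have been kept only through LH, so these values only describe them. Between LH and negative libraries the 3 log ratios differed by -0.05 to -0.16 only, with exact permutation p of 0.6286 to 0.8571. Eng minus s1pr1 differed by 0.31 between LH and FSH libraries (exact permutation p = 0.6571). The log ratios of eng and s1pr1 to cdh5 in FSH libraries did not overlap with those in LH or negative libraries, whereas those in LH and negative libraries overlapped with each other.

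Across the 12 male libraries the log2 values correlated at 0.943 for eng and s1pr1, 0.769 for cdh5 and s1pr1 and 0.729 for eng and cdh5. These points share fractions and pools, and the fractions set most of the relation. When each fraction's mean was removed, the values over the 12 libraries were 0.454, 0.305 and 0.176, and over the 8 LH and negative libraries alone they were 0.221, 0.821 and -0.229. The order of the pairs thus depended on whether the low FSH libraries were counted. In LH sort 1 eng had its highest and cdh5 its lowest LH value.

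By Pearson correlation over the 12 libraries of a sex, the genes most like eng were neto2 (0.988), an auxiliary subunit of kainate receptors, cacna2d3 (0.964), a calcium channel subunit, and the ephrin receptor epha8 (0.961). The most like s1pr1 were LOC100708243 (0.976), the prostaglandin E receptor gene ptger1a (0.969) and LOC109201927 (0.968). The most like cdh5 were the Wnt pathway factor lef1 (0.958), znf106 (0.916) and the synaptic scaffold gene shank2 (0.913). The most like engl were LOC106099003 (0.967), LOC102078335 (0.949) and the cytokine gene csf3a (0.934), which had a mean of 67.6 NR in LH, against 0.601 NR in FSH and 8.96 NR in negative libraries. A correlation above 0.9 was reached by 40 genes for eng, 78 for s1pr1 and 6 for cdh5, of 2391 male genes each, and by 18 of 1848 female genes for engl. These correlations also share fractions and pools, and for these genes they were not computed with the fraction means removed. They only describe genes with a similar course over the fractions.

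A wider list of genes that mark vascular endothelium was counted next. It matched 38 genes of the annotation, of which 6 are in the male table and 7 in the female table. A gene low in FSH against negative libraries can be there only through LH, and a gene low in LH only through FSH. The counts of this and the following lists are in part set by that selection, and they only describe the lists. Genes were matched by symbol, and 379 male and 265 female entries had no match in the annotation. Endothelial markers such as pecam1, tie1, tek and vwf were not found by symbol and were not analysed here. In males, cdh5, eng and s1pr1 were called higher in LH than in FSH libraries, and the other 3 were called lower (42.2% of the table was called lower), with a list median of 0.24 where the table median was -0.54. Without eng, s1pr1 and cdh5 the list had 0 genes called higher and 3 lower, with a median of -2.05. Of those 3, cldn5, a claudin of endothelial tight junctions, had the lowest log2 fold change.

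In males, cldn5 had 0, 2.81, 0 and 6.27 NR in LH libraries, against 16.9, 15.5, 19.7 and 40.8 NR in FSH libraries and 1.51 to 3.21 NR in negative libraries, a log2 fold change of LH against FSH of -3.29 ± 0.62 (SE, limma adjusted p = 3.21e-04). The LH libraries held 7 cldn5 reads and the negative libraries 8. Among these libraries only LH sort 4 was above the limit of 3 reads. The junction molecule esamb had 4.21 to 8.78 NR in LH, against 24.6 to 35.6 NR in FSH libraries (-2.05 ± 0.35, adjusted p = 1.33e-04). The Notch ligand dll4 had 77.8 to 236.4 NR in LH, against 175.1 to 343.5 NR in FSH libraries (-1.25 ± 0.37, adjusted p = 0.00976), and its call was lost after median centring and with TMM factors. These 3 were also called higher in FSH than in negative libraries, as 81.9% of the table was, the opposite of eng and s1pr1. That call was lost for esamb and cldn5 after median centring and for esamb with TMM factors, with no change of sign.

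In females 5 of 7 list genes were called higher in LH than in FSH libraries and 2 lower (25.9% and 61.4% of the table), with a list median of 3.12 where the table median was -0.96. Without engl it had 4 higher and 2 lower, with a median of 3.48. Kdrl, a VEGF receptor, had 26.9, 178.4, 78.3 and 31.9 NR in LH libraries, against 1.41, 0, 0 and 16.3 NR in FSH libraries (log2 fold change 4.57 ± 0.73, SE, limma adjusted p = 1.33e-05). The transcription factor gene sox17 had 52.4, 23.6, 63.8 and 39.5 NR in LH libraries and no read in any FSH library, so that LH was at least 56.9-fold higher than 3 reads over the FSH group. Ramp2, a partner of the adrenomedullin receptor, was at 4.50 ± 0.62, and the scavenger receptor gene stab1 was at 2.47 ± 0.33. Every LH library of esamb was at or below the limit of 3 reads. Esamb (-1.92 ± 0.54) and dll4 (-1.81 ± 0.24) were lower in LH than in FSH libraries, as they were in males. FSH against negative libraries gave the reverse of this split, with 5 called lower and 2 higher (20.0% and 73.3% of the table). Under both other scalings the call of esamb was lost there, which left 5 lower and 1 higher. The count for LH against FSH was 5 and 2 also without LH sort 2 and under both other scalings.

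Mcama (an adhesion molecule of vessel walls) is the only gene of the mural cell list found by symbol in either table. In males it had 99.7, 248.6, 362.4 and 146.8 NR in LH, against 17.8 to 38.1 NR in FSH and 53.9 to 99.5 NR in negative libraries, and in females 91.0 to 190.2 NR in LH, against 9.29 to 11.8 NR in FSH and 50.8 to 67.1 NR in negative libraries. Its log2 fold change of LH against FSH was 2.60 ± 0.37 in males and 3.53 ± 0.26 in females (SE, limma adjusted p = 2.09e-05 and 4.99e-10). It thus had the order of eng and s1pr1 (LH, negative, FSH) in both sexes. A gene kept through LH that is lower in FSH than in negative libraries has this order by selection. The smooth muscle and pericyte markers of that list, pdgfrb, acta2 and tagln among them, were not analysed here.

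Genes around endoglin were counted in the same way. The endoglin pathway list has 19 genes in the annotation, and 3 are in each table. Betaglycan (tgfbr3), another co-receptor of the TGF-beta family, was distributed opposite to eng, with 22.5 to 69.0 NR in male LH libraries, against 312.6 to 2762 NR in FSH and 62.1 to 121.2 NR in negative libraries. Its log2 fold change of LH against FSH was -4.64 ± 0.51 in males and -5.01 ± 0.25 in females (limma adjusted p = 1.39e-06 and 1.29e-12). As its mean was lower in LH than in negative libraries, tgfbr3 can have been kept only through FSH, and eng only through LH. The opposite distribution was thus in part set by selection. The ligand gene tgfb1a was also lower in LH than in FSH libraries, at -2.10 ± 0.33 and -1.88 ± 0.18. Smad9, a signal transducer of BMP receptors, was higher in male LH than FSH libraries (1.42 ± 0.51, adjusted p = 0.0259), a call that was lost without LH sort 1, and the BMP target id2 was higher in female LH than FSH libraries (0.98 ± 0.23, adjusted p = 5.67e-04).

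No gene of the sphingosine 1-phosphate pathway list (13 genes in the annotation) other than s1pr1 itself was found by symbol in either table, nor was any of the erythrocyte and thrombocyte list (7 genes). Among the cadherins other than cdh5, 7 were in the male table, and 5 were called higher in LH than in FSH libraries (cdh4, cdh7, cdh8, cdh13 and cdh18, from 1.06 to 3.29 on the log2 scale) and 2 lower (cdh16 at -3.71 and cdh20 at -1.50), beside 16.4% and 42.2% of the table. Without LH sort 1 the cdh7 call was lost. In females cdh8 was higher (1.22) and cdh16 (-4.70) and cdh20 (-1.82) lower, beside 25.9% and 61.4% of the table. Of the vessel growth factors, pdgfbb, which attracts mural cells, had 38.3 to 93.1 NR in female LH libraries, against 0 to 0.905 NR in FSH and 19.3 to 43.8 NR in negative libraries (5.65 ± 0.41, adjusted p = 3.51e-10). Apln, the ligand of the apelin receptor, was at 0.68 ± 0.35 in males and -0.37 ± 0.39 in females and passed the threshold in neither (adjusted p = 0.105 and 0.371). In males it was called higher after median centring, with TMM factors and in DESeq2, and in females its sign changed after centring and with TMM factors.

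**Figure D4:**
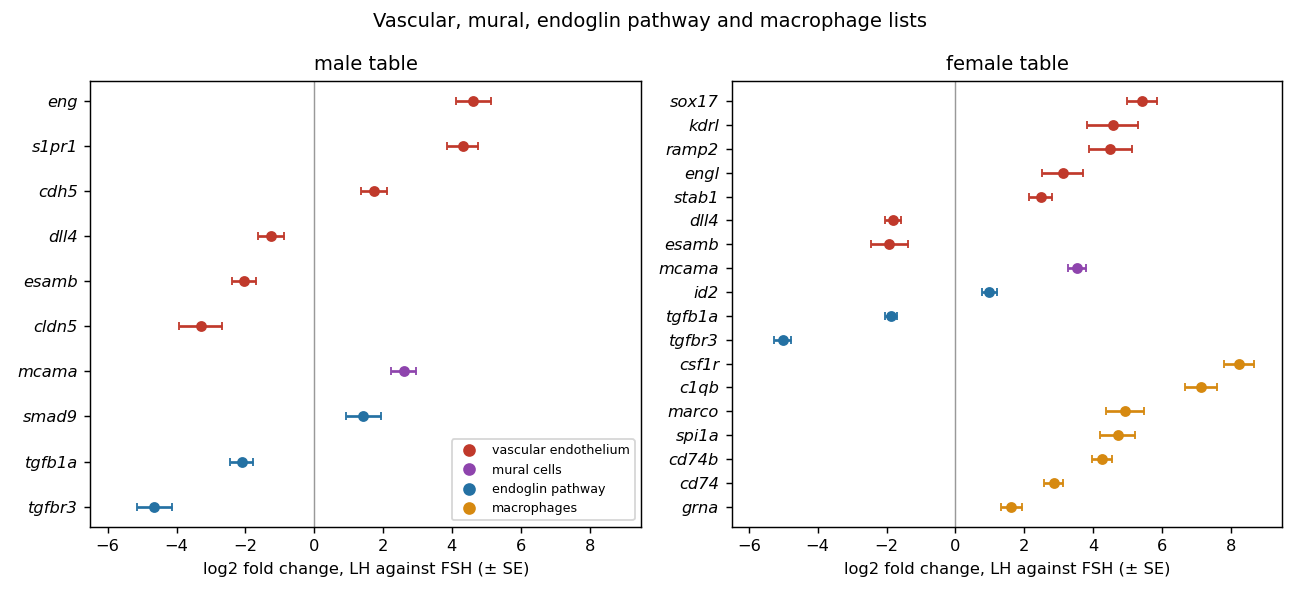
Log2 fold change of LH against FSH (± SE) for the genes of the vascular endothelium, mural cell, endoglin pathway and macrophage lists that each table holds. In males eng, s1pr1 and cdh5 lie right of 0 and esamb, cldn5 and dll4 left of it; in females 5 of 7 genes of the endothelial list (engl among them), mcama and all 7 macrophage genes lie right of 0.

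Genes of a macrophage list had the same order of mean levels as engl in females (LH, negative, FSH). So had kdrl, sox17, stab1, ramp2, mcama and pdgfbb. A gene kept through LH that is lower in FSH than in negative libraries has this order by selection. Of the female table, 20.0% was called lower in FSH than in negative libraries. The macrophage list has 14 genes in the annotation, of which 7 were found by symbol in the female table and none in the male table, where they were not analysed here. All 7 (csf1r, spi1a, marco, cd74, cd74b, c1qb and grna) were called higher in LH than in FSH libraries and higher in LH than in negative libraries, where 25.9% and 36.9% of the table were called higher. In FSH against negative libraries all 7 were below 0, from -5.05 (csf1r) to -0.26 (grna). They can therefore have been kept in the table only through LH, and both counts were largely set by that selection. The count against negative libraries was 4 after median centring and 6 with TMM factors. Their summed level was 5762 to 13470 NR in LH libraries, against 728.9 to 1420 NR in FSH and 2781 to 4546 NR in negative libraries. In LH libraries most of the mean sum of 10730 NR came from cd74 (mean 5599 NR) and cd74b (mean 4194 NR). In FSH libraries cd74, cd74b and grna (means 770.3, 216.6 and 93.1 NR) made up nearly all of the mean sum of 1082 NR. The receptor gene csf1r of that list had no read in any FSH library and was at least 446.3-fold higher in LH. In the FSH libraries 1 c1qb read and 2 spi1a reads were counted. Of the 7 genes, 6 were called lower in FSH than in negative libraries, and grna was not (-0.26 ± 0.30, adjusted p = 0.422). Their part in the engl result was not tested.

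Within the female LH libraries, sort 2 was low for engl and for several genes of these lists. Relative to the mean of the 4 LH libraries, engl was at 0.365 in sort 2, sox17 at 0.527 and ramp2 at 0.131. Csf1r was at 0.295, c1qb at 0.278, marco at 0.351 and cd74 at 0.559 in that library. Cd74b was at 0.539 and grna at 0.589 there, while spi1a, at 0.675, was level with sort 1 (0.687). Of the other endothelial genes, stab1 was at 0.785 and esamb at 0.457. Esamb had 10 reads over the 4 LH libraries, each of which was at or below the limit of 3 reads. Kdrl and mcama were highest there, at 2.26 and 1.40, while dll4 was even over the 4 sorts, at 0.920 to 1.06. Engl was lowest, with 4 reads, in this LH library. The endothelial list genes sox17, ramp2 and stab1 and the macrophage sum (mostly cd74 and cd74b) were also lowest there, while kdrl and mcama were highest. Over the whole female table, LH sort 2 was the lowest LH library for 29.4% and the highest for 37.8% of genes. A relation between these genes was not tested. With LH sort 2 left out, the log2 fold change of engl in LH against FSH was 3.50 (limma adjusted p = 3.53e-05), and in LH against negative 1.91 (adjusted p = 0.019).

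**Figure D5:**
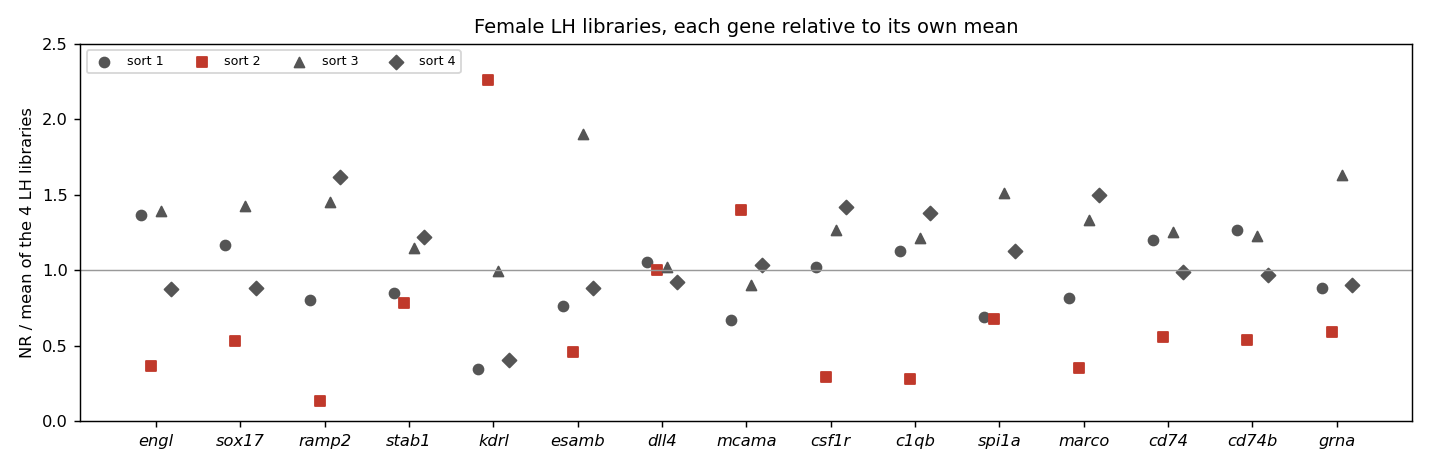
Level of each endothelial, mural and macrophage list gene of the female table in the 4 LH libraries, divided by the gene's mean over these 4 libraries (1 is the mean); red squares are sort 2. Engl, sox17, ramp2 and the macrophage genes csf1r, c1qb and marco are low in sort 2, whereas kdrl (2.26) and mcama (1.40) are highest there.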

How the data were processed

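Reads were trimmed with Trim Galore, mapped to O_niloticus_UMD_NMBU with STAR and, where uniquely mapped, counted per known gene by the authors. The library kit was stranded and made for low amounts of total RNA. The authors deposited a signal value per gene and library, the normalized read number after division by a DESeq2 size factor, in 1 table for each sex. Only genes that exceeded a log2 fold change of 1 over negative cells, in LH or FSH cells, were kept in these tables. The study also names an FDR-corrected p below 0.05 in DESeq2 as a criterion. The fold changes and p-values of the authors were deposited too and were not used. Gene names of the male table were found 1 line off their values and were shifted back. Over 1309 shared genes, male and female log2 fold changes over negative libraries then correlated at 0.727 (LH) and 0.924 (FSH), against 0.126 and 0.0631 as deposited.

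All values (100%) were whole multiples of 1 read, within 0.01 reads, at size factors of 0.416 to 2.45. No library repeated another. Log2(NR + 1) was fitted with limma 3.58.1 (R 4.3.3) over the 12 libraries of a sex, with a trend, and adjusted by Benjamini-Hochberg over the table. A gene was called at an adjusted p below 0.05, with no fold limit. EdgeR 4.0.16 and DESeq2 1.42.0 on the recovered reads, other pseudocounts, filters and scalings, a block for the sort and libraries left out were alternatives. The fit was also run on simulated counts with independent libraries. That simulation had no shared pools, no shift of the whole table and no selection of genes, so it cannot speak to these features of the data. Exact permutation tests used scipy 1.17.1.

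Same-numbered fractions share a pool by design. Their deviations from the fraction means correlated at 0.0249 to 0.511 in males (11 of 12 pairs over 0.1) and -0.311 to 0.229 in females (3 of 12). P-values measure the spread between these pools. The text names the 4 genes, the 3 most correlated genes of each, endothelial list genes, and other list genes called in LH against FSH, with apln added after its values were seen. Genes and lists were chosen with earlier results of these data known, and lists were matched by symbol. The annotation matched 2013 male and 1584 female genes, and 379 and 265 were not matched.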

Additional observations from a re-analysis of the deposited data

Results flagged for a closer look

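Of the 12 groups of 4 libraries formed by the 4 genes and their fractions, 3 had 1 library whose gap to its nearest neighbour took most of the group's range, past Dixon's 95% limit. Chance alone sets about 1 in 20 such groups apart. In the male LH libraries, eng was highest in sort 1, at 345.8 NR, against 84.1 to 127.8 NR in the other sorts. In the male negative libraries, s1pr1 was highest in sort 1, at 39.6 NR, against 15.7 to 19.6 NR. In the female negative libraries, engl was highest in sort 2, at 12.3 NR (7 reads), against 1.83 to 3.30 NR. Over all genes, such a gap occurred in 6.27% of the male LH groups, 5.48% of the male negative groups and 5.84% of the female negative groups.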

How the results depend on the processing

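LH against FSH kept its direction and its call for each of the 4 genes under every alternative run, with log2 fold changes of 3.83 to 5.03 for eng, 2.98 to 5.03 for s1pr1, 1.43 to 2.12 for cdh5 and 1.67 to 5.22 for engl. FSH against negative kept both for eng (-5.08 to -2.84) and s1pr1 (-5.04 to -2.03). For cdh5 it became significant after median centring (-2.03) and with TMM factors (-1.998), and for engl it lost significance at a pseudocount of 5 (-0.68). None of these settings undoes the selection of the tables, in which the 4 genes can have been kept only through LH. Keeping the call in LH against FSH is therefore no separate support for it.

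LH against negative depended on the settings. Eng passed the threshold at a pseudocount of 5 (0.98), with the replicate block (1.02), with the LH and negative fractions alone (1.02), in edgeR and DESeq2 with the size factors of the authors (1.22 each), was 0.14 with TMM factors in edgeR (adjusted p = 0.855), and turned to -0.075 after median centring. S1pr1 lost significance at a pseudocount of 0.5 (1.10) and turned to -0.021 after centring and -0.0092 with TMM. Cdh5 was 0.082 after centring and 0.12 with TMM. Engl lost significance at a pseudocount of 0.5 (1.65), with the replicate block (1.52), after centring (0.84) and with TMM (1.21). The replicate block (pairing by pool) changed no other call of the 4 genes. Engl had no value under the filter of a mean of at least 10 NR.

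Single libraries left out were chosen after seeing the data, and whole sorts were left out as well. In LH against negative these gave 0.58 to 1.36 for eng, 0.92 to 1.36 for s1pr1, 0.95 to 1.59 for cdh5 and 1.08 to 2.39 for engl. In FSH against negative engl ranged from -2.13 to -0.88. Where a setting left a fraction with 3 libraries the others shared the spread.

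Scaling moved the counts of called genes. Male LH against negative had 1612 calls (1594 higher and 18 lower), against 472 (186 and 286) after centring and 424 (207 and 217) with TMM. Male FSH against negative had 2149 (1958 and 191), against 801 (407 and 394) and 800 (440 and 360). Female LH against negative had 722 (683 and 39), against 338 (100 and 238) and 304 (184 and 120), and 439 to 732 with sorts or libraries left out. Female FSH against negative had 1725 (1356 and 369), against 879 (427 and 452) and 738 (267 and 471). Male LH against FSH had 393 higher and 1009 lower, against 507 and 515 after centring and 512 and 502 with TMM. Female LH against FSH had 478 higher and 1135 lower, against 504 and 821, and 968 calls (556 and 412) with TMM. The median log2 fold change over all genes shifted to between -0.53 and 0.15 under these scalings, from 1.05 and 0.52 in LH against negative, 1.39 and 1.26 in FSH against negative, and -0.54 and -0.96 in LH against FSH (males, then females). The tables hold only genes kept for a log2 fold change above 1 over negative cells. The positive medians against negative libraries are therefore in part set by that selection. Centring and TMM factors take out such a shift whatever its source. What else moved the counts was not tested.

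The difference between the sexes was not run, since no gene here is in both tables. Depth limits engl most, with 2 reads in FSH libraries, and the selection of the tables leaves genes that neither gonadotroph fraction enriched unanalysed here.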
